A study of Homo sapiens with 3 samples.

Results

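The genes described here encode the subunits of the mitochondrial respiratory chain and ATP synthase. They were taken by symbol from the gene list of the files (MT-ND, MT-CO, MT-CYB, MT-ATP, NDUFA, NDUFB, NDUFC, NDUFS, NDUFV, UQCR, COX4 to COX8, ATP5F, ATP5M and ATP5P), without pseudogenes, antisense genes and NDUFAF assembly factors. This gave 98 of 33538 genes, of which 13 lie on the mitochondrial genome and 85 in the nucleus. Complex I (NADH dehydrogenase) had 7 mitochondrially encoded and 38 nuclear members, complex III (cytochrome bc1) had 1 and 9, complex IV (cytochrome c oxidase) had 3 and 19, and complex V (ATP synthase) had 2 and 19. NDUFA4 and NDUFA4L2 were counted with complex IV, where their proteins are found, although their names come from complex I. The nuclear members are spread over 22 chromosomes, with 12 of them on chromosome 19.

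The RNA came from dissociated blood vessel organoids, cultures in gel that hold endothelial and mural cells, at day 45. All were made from H1 cells (an established human embryonic stem line) into which PiggyBac had put a doxycycline-inducible NEUROD1-P2A-GFP cassette, so the uninduced organoids carry it too. There was 1 library for each of 3 groups, with no doxycycline, with doxycycline at 1 µg/ml for 15 days, and with it for 45 days. Which days the 15 were is not stated in the labels. BDNF and NT-3 were in the medium of all organoids from day 15, including those without induction. For each library 5 to 6 organoids were pooled, dissociated with papain (20 U/ml, 30 min), passed through a 40 µm filter and captured on a Chromium Chip B (3′ chemistry, v3). With 1 library per group, induction cannot be told apart from any other difference between the libraries, and no test between groups was possible. Intervals below are exact 95% intervals and cover counting error only.

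The respiratory chain passes electrons from NADH through complexes I, III and IV to oxygen and pumps protons across the inner mitochondrial membrane, and complex V uses the resulting gradient to make ATP. Complexes I, III, IV and V are each assembled from subunits of both genomes. The mitochondrial messages are cut from long polycistronic transcripts, whereas each nuclear gene has its own promoter, so the RNA of both sets is made by different polymerases. Neurons are known for a high demand for oxidative ATP production, and stem-cell-derived tissues and hypoxic cells for a large glycolytic part.

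The libraries held 8133, 5050 and 8813 cells after filtering (no induction, 15 days, 45 days), with 50332561, 44910895 and 54354063 unique molecular identifiers (UMIs). The median cell had 5137, 7296.5 and 5552 UMIs. Between 13 and 33 cell barcodes were shared between pairs of libraries. All MT- genes of the files were members, so the cap of 20% on mitochondrial UMIs used in filtering acts on members themselves; it removed 384, 260 and 230 barcodes. Classes were named from marker genes after clustering without the members; neuron-like cells (led by NEFL and PRPH) numbered 0, 303 and 300, endothelial-like cells 446, 328 and 219, and mural-like cells 741, 1062 and 1274. One cluster led by PTX3 (cluster 1; 2168, 24 and 320 cells) was left unnamed, because FABP7 from another class stood among its leading genes. Each UMI stands for 1 molecule read at its 3′ end, so UMIs scaled to one library total (CPM) do not depend on transcript length.

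Mitochondrially encoded members took a smaller share of all UMIs with induction. The share was 5.17% without induction, 4.47% at 15 days and 3.77% at 45 days. Against no induction this was 0.864-fold at 15 days (0.863 to 0.866) and 0.730-fold at 45 days (0.728 to 0.731). Nuclear members, by contrast, stayed near the same level, at 2.03%, 2.14% and 1.97%. The number of mitochondrial UMIs per nuclear UMI was therefore 2.55, 2.09 and 1.92.

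The gap between the genomes was not the same in each complex. In complex IV, mitochondrial UMIs outnumbered nuclear ones 5.98, 4.56 and 4.17 to 1. In complex III the ratio was 1.66, 1.31 and 1.18, and in complex I it was 2.06, 1.76 and 1.68. In complex V, where MT-ATP6 and MT-ATP8 are the mitochondrial members, it was 0.627, 0.549 and 0.590, so the 45 days library lay between the other two there.

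Of the 98 members, 12 mitochondrially encoded and 74 nuclear genes had a mean of at least 20 CPM over the 3 libraries; all 98 are accounted for below. Differences are log2 ratios after adding 5 CPM to both values, which understates the difference of low genes. They are counted from 1.3-fold. At 2-fold, 0 of the 86 members were apart in any pair of whole libraries, against 1.66% of all genes higher and 1.36% lower for 45 days against no induction, 3.02% and 1.02% for 15 days against no induction, and 0.21% and 1.24% for 45 against 15 days. Between 45 days and no induction, 5 of the 12 mitochondrially encoded members were at least 1.3-fold lower, against 5.65% of all 6199 genes over the floor, and 0 were that much higher, against 14.9% of all genes. Of the 74 nuclear members 3 were lower and 1 higher. The median log2 ratio was -0.30 for the mitochondrially encoded members and -0.04 for the nuclear ones, and 0.12 for all genes. When the libraries were scaled by the median of gene ratios, these medians were -0.48, -0.21 and -0.04, so the order of the 3 sets was kept and the sign for all genes was not. Under that scaling 22 of the 86 members over the floor were lower and 0 higher, in place of 8 and 1, and 11.3% of all genes were lower and 6.72% higher.

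The mitochondrially encoded members differed in size and direction. MT-ND3, a core membrane subunit of complex I (mitochondrial genome, 10059 to 10404, GRCh38), had 3146 CPM without induction, 2150 at 15 days and 1813 at 45 days. It was the lowest member at 45 days, at 0.576-fold (0.572 to 0.581). MT-CO1, the catalytic core of complex IV (5904 to 7445), had 13805, 11910 and 8997 CPM. The other complex IV members had the same order of libraries, with MT-CO2 at 7532, 6175 and 5441 CPM and MT-CO3 at 10048, 8632 and 7357 CPM. MT-CYB, the cytochrome b of complex III, had 4551, 3747 and 3216 CPM. These 5 genes were the ones past 1.3-fold at 45 days.

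Other mitochondrial messages were closer to the uninduced level or above it. MT-ND4 had 4974, 4853 and 3952 CPM and MT-ND2 1059, 939 and 873 CPM, both lower at 45 days by less than 1.3-fold. MT-ND1, at 1548, 1668 and 1453 CPM, and MT-ND5, at 675, 704 and 649 CPM, were each highest at 15 days. MT-ATP6, the proton channel subunit of complex V, had 4159, 3656 and 3741 CPM. MT-ND6, the sole member encoded on the other strand, had 120, 155 and 146 CPM and was 1.22-fold (1.18 to 1.26) of the uninduced level at 45 days. MT-ND4L, which shares a transcript with MT-ND4, had 80.6, 102 and 77.4 CPM, and MT-ATP8, which shares one with MT-ATP6, had 6.87, 9.04 and 8.89 CPM and did not reach the floor; for such pairs the split depends on where on the shared message reads were captured.

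**Figure D1:**
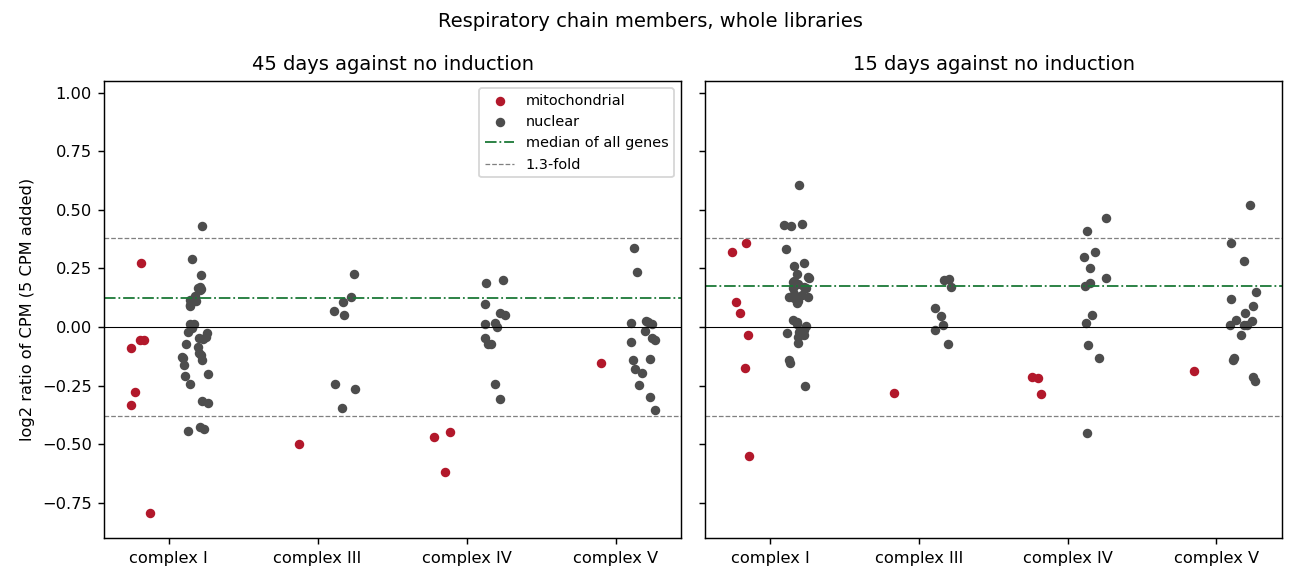
Log2 ratio of CPM (5 CPM added) of each member with a mean of at least 20 CPM, by complex, for 45 days against no induction (left) and 15 days against no induction (right); red points are mitochondrially encoded, grey points nuclear, dashed lines mark 1.3-fold and the dash-dotted line the median of all genes. At 45 days MT-ND3 (-0.79) and the MT-CO genes lie below the nuclear members, and at 15 days the nuclear members lie around 0.12.

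Among nuclear members at 45 days, the lowest were small accessory subunits of complex I. NDUFA13 had 166, 149 and 121 CPM, NDUFA3 114, 115 and 82.7 CPM and NDUFB1 124, 122 and 90.8 CPM. They were 0.727-fold (0.704 to 0.751), 0.728-fold and 0.734-fold of the uninduced level. The next lowest were ATP5ME, an accessory subunit of ATP synthase, at 315, 285 and 245 CPM, and UQCR11, an accessory subunit of complex III, at 248, 250 and 195 CPM. At 15 days NDUFA3, NDUFB1 and UQCR11 were near the uninduced level, at 0.01, -0.02 and 0.01 on the log2 scale, and ATP5ME and NDUFA13 were at -0.14 and -0.15.

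Other nuclear members lay above the uninduced level at 45 days by less than 1.3-fold. ATP5F1B, the catalytic beta subunit of ATP synthase, had 248, 359 and 315 CPM, and its partner ATP5F1A had 317, 407 and 374 CPM. NDUFS1, the large iron-sulfur subunit of complex I, had 36.3, 57.9 and 45.5 CPM, and UQCRC2, a core protein of complex III, had 171, 197 and 201 CPM. Short messages tended to lie lower: across the 74 nuclear members the Spearman correlation of the ratio with transcript length was 0.29, and across 6115 of all genes it was 0.17. Both are descriptions across genes from the same pair of libraries, and the part of transcript length in these values was not tested.

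At 15 days against no induction, 7 of the 74 nuclear members were at least 1.3-fold higher, against 20.8% of all genes, and 1 was lower, against 4.57%. Among them were NDUFS1, ATP5F1B, COX5A, NDUFA5, NDUFV3 and NDUFA4. NDUFA5, an accessory subunit of complex I, had 122, 168 and 144 CPM. COX5A, a nuclear subunit of complex IV, had 211, 292 and 241 CPM. The lowest nuclear member was NDUFA4L2, at -0.45, followed by NDUFA11, ATP5MPL and ATP5MG at -0.25, -0.23 and -0.21, accessory subunits of complex I and ATP synthase. The median of the nuclear members was 0.12 on the log2 scale and that of all genes 0.18; with scaling by the median of gene ratios both were below 0, at -0.15 and -0.07, and 16 of the 86 members were lower and 0 higher, against 13.0% and 7.90% of all genes. Of the 12 mitochondrially encoded members 1 was lower (MT-ND3) and 0 were higher.

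The higher nuclear share at 15 days was not seen without the neuron-like cells, of which the uninduced library had 0 (a share of up to 0.0369%). Without them the nuclear share at 15 days was 2.0% in place of 2.14%, and 2 of the 74 nuclear members, ATP5F1B among them, were at least 1.3-fold higher, against 15.9% of all genes in the same cells, and 0 were lower, against 3.53%. The log2 ratio of NDUFA5 then went from 0.44 to -0.02. Within the named classes that could be compared, the nuclear share was lower at 15 days than without induction in 6 of 6. Between 45 and 15 days, 2 of 74 nuclear and 1 of 12 mitochondrially encoded members were at least 1.3-fold lower, against 8.42% of all genes, and 0 were higher, against 2.27%; the members were NDUFA3, NDUFB1 and MT-CO1. NDUFA4L2 and ATP5MC2 were the highest nuclear members there, at 0.21 and 0.15. The 3 comparisons share libraries, so they are not independent of each other.

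The lower mitochondrial share at 45 days was seen in every class with at least 50 cells in both libraries. Mesenchymal-like cells, the most numerous class, had 4.49% without induction, 3.48% at 15 days and 3.14% at 45 days. Epithelial-like cells had the widest range among the named classes, at 7.48%, 4.61% and 3.44%. MALAT1 moved with this class, at 24504, 41231 and 36275 CPM, and its part in the difference was not tested. Cycling-like cells had 5.79%, 4.31% and 4.22%, and mural-like cells 5.93%, 5.39% and 4.93%. Endothelial-like cells, at 6.98%, 6.79% and 6.28%, and haematopoietic-like cells, at 8.35%, 9.32% and 7.40%, had high shares in each library. Haematopoietic-like cells were the one class that was higher at 15 days than without induction; they numbered 65, 89 and 82. The unnamed cluster 1 had 3.92% without induction and 1.74% at 45 days. Within classes the nuclear share was also lower at 45 days, in 6 of 6 named classes, by less: it went from 2.03% to 1.92% in mesenchymal-like, from 2.07% to 1.77% in epithelial-like and from 1.97% to 1.81% in endothelial-like cells.

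**Figure D2:**
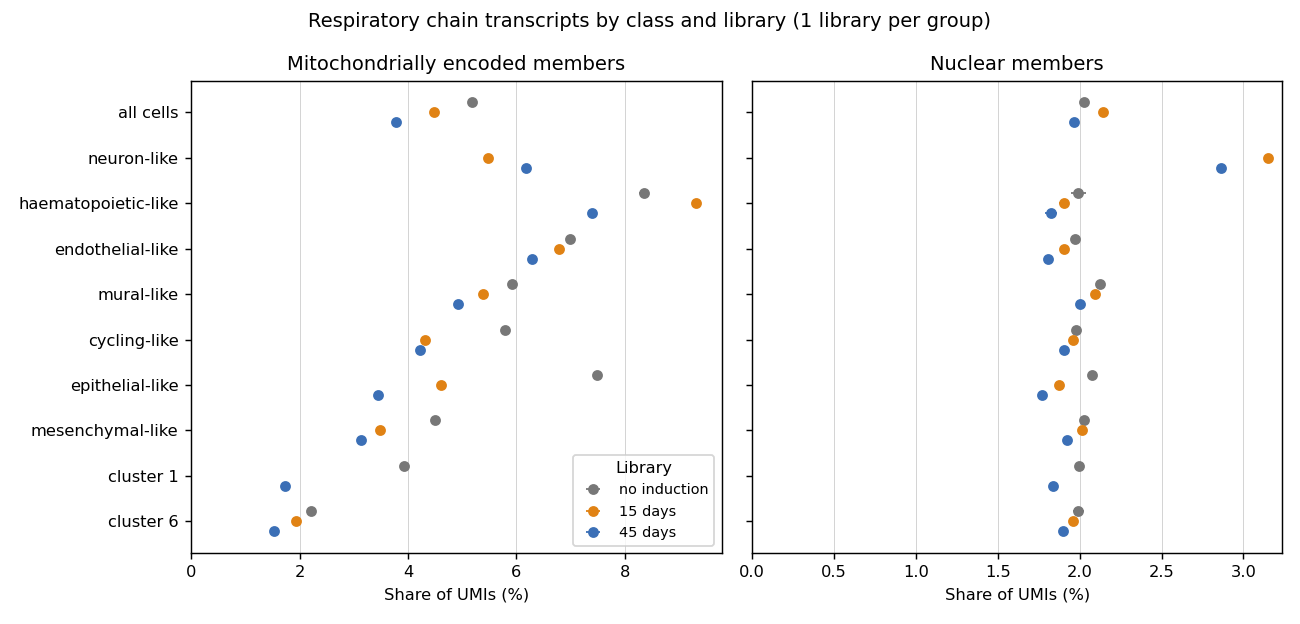
Share of UMIs from mitochondrially encoded members (left) and nuclear members (right) in all cells, in named classes and in clusters 1 and 6, for no induction (grey), 15 days (orange) and 45 days (blue); points are sums over the cells of 1 library, bars are exact 95% counting intervals, and groups under 50 cells are not drawn. The 45 days point lies below the uninduced one in each row that has both, and the nuclear share of neuron-like cells (3.15% and 2.86%) stands apart from the other rows.

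Single clusters gave the same direction. The mitochondrial share was lower at 45 days than without induction in 19 of 19 clusters with at least 50 cells in both libraries, from 0.443-fold in cluster 1 to 0.899-fold in cluster 7, which is the endothelial-like one. The nuclear share was lower in 19 of 19 as well, from 0.813-fold to 0.966-fold. At 15 days the mitochondrial share was lower than without induction in 14 of 15 clusters and the nuclear share in 12 of 15. Over these 19 clusters, which held 87.4% of the uninduced and 92.3% of the 45 days UMIs, the share was 5.19% without induction and 3.67% at 45 days, and 3.48% at 45 days with the clusters weighted as in the uninduced library. The part of cells outside these clusters was not tested. The clusters that make up the mesenchymal-like and epithelial-like classes differed between libraries. In the epithelial-like class, cluster 20 (GABRP-led) held 266 of 471 uninduced cells and 81 of 512 at 45 days, and cluster 9 (KRT15-led) taken alone went from 6.68% to 4.62% and 3.13%. Hepatocyte-like cells (83, 249 and 13) were left out of the class counts, because the uninduced ones also carried gut markers. Their cluster, 21, is still among the 15 clusters counted at 15 days, where its mitochondrial share was the lowest, at 0.449-fold.

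MT-ND3 was lower at 45 days in each of the 7 classes or clusters compared, by -0.44 on the log2 scale in endothelial-like and -1.57 in cluster 1, and MT-CO1, MT-CO2, MT-CO3 and MT-CYB were lower in 7 of 7 too. MT-ND6 was higher in 7 of 7, by 0.05 to 0.69. MT-ATP6 was lower in 4 of 7 and ranged from -0.84 in epithelial-like to 0.27 in endothelial-like cells. Among nuclear members, NDUFB1, NDUFA3, ATP5ME and UQCR11 were lower in 7 of 7 and NDUFA13 in 6 of 7. ATP5F1A and UQCRC2 were above 0 in 7 of 7, by 0.04 to 0.18 and 0.06 to 0.26. These counts take every value on either side of 0, without a threshold. The median of all genes in whole libraries was itself 0.12, or -0.04 with scaling by the median of gene ratios.

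Cells with very little mitochondrial RNA were more numerous at 45 days. Cells with under 1% mitochondrial UMIs were 11.8% of the uninduced library (11.1 to 12.5), 14.1% of the 15 days library (13.2 to 15.1) and 20.0% of the 45 days library (19.1 to 20.8). With each cell thinned to 1000 UMIs the shares were 11.5%, 14.0% and 19.8%. The rest of the cells shifted as well, since the median cell had 4.57%, 3.80% and 2.94%, and the upper quartile was at 6.65%, 5.99% and 4.99%. The 5th and the 95th percentile of cells were at 0.494% and 10.9% without induction, 0.256% and 11% at 15 days, and 0.236% and 9.14% at 45 days. Epithelial-like cells under 1% were 7.43%, 10.8% and 31.8% of their class, and in cluster 1 the shares were 14.3% without induction and 43.1% at 45 days. The make-up of the epithelial-like class differed between libraries. In its cluster 9 taken alone, 26 of 205, 25 of 219 and 145 of 431 cells were under 1%. Neuron-like cells had 17.5% at 15 days and 39.7% at 45 days. Mural-like cells under 1% were rarer, at 5.13%, 3.95% and 7.77%.

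**Figure D3:**
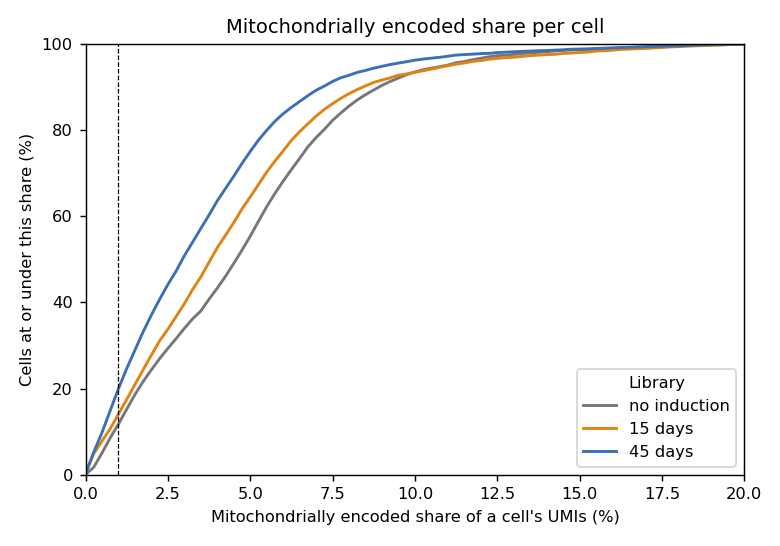
Cumulative share of cells (y axis, %) at or under a given mitochondrially encoded share of the cell's UMIs (x axis, %), one line per library; the dashed line marks 1%. The 45 days line lies above the others between 1% and 15% of UMIs, with 20.0% of cells under 1%.

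Over whole libraries nuclear members were somewhat lower in cells under 1% than in the rest. In the uninduced library nuclear members made up 2.08% of the UMIs from genes other than MT- genes in cells under 1% and 2.14% in the rest. The values were 2.02% and 2.27% at 15 days and 1.94% and 2.07% at 45 days. Among neuron-like cells they were 2.80% and 3.37% at 15 days and 2.30% and 3.22% at 45 days. Epithelial-like cells at 45 days had the opposite order, at 1.86% and 1.82%. Glycolysis genes took 1.17% of the same UMIs in the uninduced cells under 1% and 0.629% in the rest. At 15 days they took 1.74% and 0.900%, and at 45 days 1.53% and 0.858%. Neuron-like cells did not show this for glycolysis, with 1.73% and 1.75% at 15 days and 1.19% and 1.43% at 45 days. Other targets of hypoxia-inducible factor (HIF) were also higher in the cells under 1%, at 0.309% and 0.139% without induction and 0.388% and 0.198% at 45 days. MALAT1, a nuclear-retained RNA, was at 33639 and 25584 CPM without induction and at 36740 and 28561 CPM at 45 days. The median number of UMIs was 4456 in the uninduced cells under 1% and 5237 in the rest. The part of MALAT1, depth and HIF targets in the low mitochondrial share was not tested.

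At 15 and 45 days the cluster that held the most cells under 1% was the mesenchymal-like cluster 6. Its leading genes included STC2 and ANKRD37, and it numbered 158, 322 and 726 cells. Its mitochondrial share was 2.22%, 1.93% and 1.52%, with a nuclear share of 1.99%, 1.96% and 1.90%. It held 8.98%, 24.9% and 22.9% of all cells under 1%, so most lay elsewhere. Without induction cluster 1 held the most, at 32.4%, and at 15 days the hepatocyte-like cluster 21 held 13.9%. Without cluster 6 the mitochondrial share of the libraries was 5.21%, 4.63% and 3.94%, so the order of the libraries did not rest on it.

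Neuron-like cells had the highest share of nuclear respiratory chain RNA of all classes. Nuclear members made up 3.15% of their UMIs at 15 days and 2.86% at 45 days, against 2.0% and 1.92% in the other cells of the same libraries, which is 1.57-fold (1.56 to 1.58) and 1.49-fold (1.48 to 1.51). At least 1.3-fold higher were 53 of 74 nuclear members at 15 days, against 32.5% of all genes, and 50 at 45 days, against 35.5%. In both libraries 46 were at least 1.3-fold higher and 69 above 0. The share of all genes that met either limit in both libraries was not computed. At least 1.3-fold lower were 2 at 15 days, against 34.1% of all genes, and 3 at 45 days, against 27.9%, of which NDUFA4L2 and ATP5MC2 were lower in both. The median of the nuclear members was 0.61 and 0.59 on the log2 scale, beside 0.02 and 0.11 for all genes. These comparisons are between cells of 1 library and were not clustered on the members.

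The genes that stood highest in neuron-like cells came from several complexes. NDUFA5, of complex I, had 519 CPM in neuron-like and 121 CPM in other cells at 15 days, and 453 and 126 CPM at 45 days. NDUFA4, of complex IV, had 1701 and 537 CPM at 15 days and 1376 and 494 CPM at 45 days. COX5A had 680 and 241, then 614 and 220 CPM, and COX6A1, the widely expressed form of subunit VIa, had 1035 and 370, then 937 and 339 CPM. NDUFS1 was at 135 and 47.6 CPM, then 112 and 41.7 CPM. In each of these pairs the summed neuron-like value was over 2-fold that of the other cells in both libraries. The sums are weighted to deep cells. In the shallow part of the class (sub-cluster 29, described below) NDUFA4 was 1357 CPM at 15 days. At 45 days it was 738 CPM there, under 2-fold of the 494 CPM in other cells.

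The 3 genes of ATP synthase subunit c had different proportions in neuron-like cells. ATP5MC1 (chromosome 17, 48892765 to 48895871), ATP5MC2 (chromosome 12, 53632726 to 53677408) and ATP5MC3 (chromosome 2, 175176258 to 175184607) encode the same mature protein, which forms the rotor ring, behind different import sequences. ATP5MC1 had 331 CPM in neuron-like and 84.3 CPM in other cells at 15 days, and 308 and 76.6 CPM at 45 days. ATP5MC2 went the other way, with 525 and 1002 CPM at 15 days and 577 and 1079 CPM at 45 days. ATP5MC3 was at 759 and 452 CPM, then 665 and 421 CPM. In the sum over neuron-like cells ATP5MC3 was thus the most abundant of the 3 messages, and ATP5MC2 was in each of the 6 other classes compared. In those classes ATP5MC1 lay between 62.9 and 121 CPM over all libraries, below every neuron-like value.

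**Figure D4:**
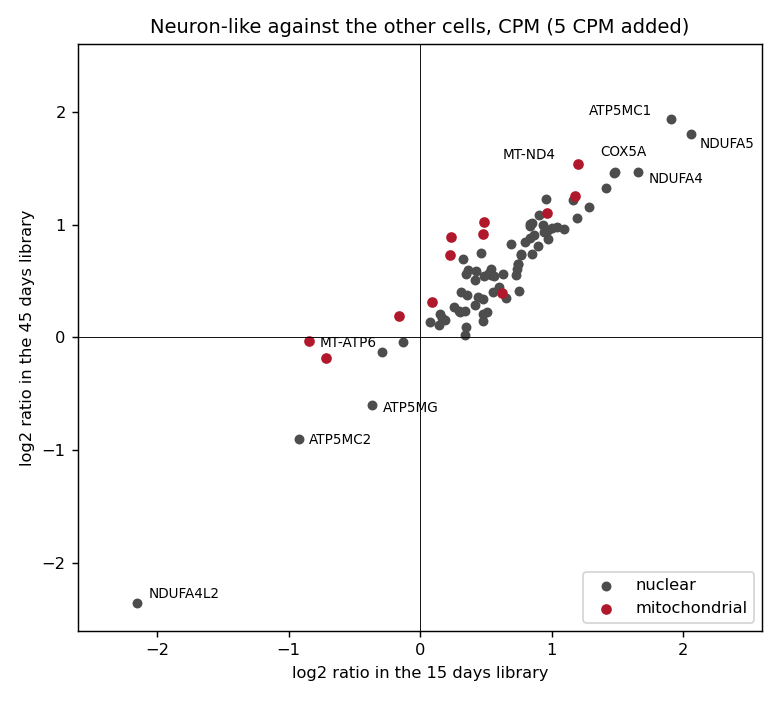
Log2 ratio of CPM (5 CPM added) in neuron-like against all other cells, in the 15 days library (x axis) and the 45 days library (y axis), for each member over 20 CPM; grey points are nuclear and red points mitochondrially encoded. Most points lie above 0 on both axes, with ATP5MC1 and NDUFA5 near 1.9 and NDUFA4L2, ATP5MC2 and ATP5MG below 0.

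In summed UMIs, mitochondrially encoded members were higher in neuron-like cells, unevenly. Their share was 5.47% at 15 days and 6.18% at 45 days, against 4.34% and 3.63% in the other cells. This order did not hold in each part of the neuron-like cells, as given below. MT-ND4 had 9688 and 4207 CPM at 15 days and 10386 and 3582 CPM at 45 days, and MT-ND5 had 1241 and 633, then 1313 and 610 CPM. MT-ATP6 had 2141 and 3858 CPM at 15 days and 3655 and 3746 CPM at 45 days, so it was lower in neuron-like cells at 15 days and near the others at 45 days. MT-ND3 had 1370 and 2254, then 1603 and 1825 CPM. In these sums neuron-like cells had less MT-ND3 and more MT-ND4 than the other cells of the same library. Both genes belong to complex I and lie on the same strand.

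The summed share hides a split among neuron-like cells. At a finer resolution they fell into sub-cluster 29, with median UMIs of 1963 at 15 days and 3312 at 45 days, and sub-cluster 31, with 25510.5 and 20870.0. In sub-cluster 31 the mitochondrial share was 5.69% and 7.59% and the nuclear share 3.18% and 3.06%. In sub-cluster 29 they were 2.18% and 1.99%, and 2.79% and 2.29%, with MALAT1 at 59846 and 59517 CPM against 16631 and 16535 CPM in sub-cluster 31. Sub-cluster 29 held 125 of 303 cells at 15 days and 199 of 300 at 45 days. Its mitochondrial share lay below the 4.34% and 3.63% of the cells outside the neuron-like class. Cells under 1% made up 17.5% and 39.7% of neuron-like cells, against 14.1% and 20.0% of all cells in the same libraries. The deep cells of sub-cluster 31 hold most of the UMIs in the sum, and the mean over cells of the mitochondrial share was 4.27% at 15 days and 3.98% at 45 days, the opposite order to the sum. ATP5MC1 was 262 and 143 CPM in sub-cluster 29 and 336 and 363 CPM in sub-cluster 31, all above the other classes. ATP5MC3 was above ATP5MC2 in sub-cluster 31 alone, at 768 and 515 CPM at 15 days and 715 and 520 CPM at 45 days. In sub-cluster 29 ATP5MC2 was the higher, with 683 CPM against 624 CPM of ATP5MC3 at 15 days and 747 against 516 CPM at 45 days.

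NDUFA4L2, a paralogue of NDUFA4 and a known HIF target, was highest in mural-like cells among the classes compared, though not in each of their clusters. It had 236, 201 and 260 CPM there, and within them 524, 445 and 580 CPM in cluster 11, led by FABP4 and CD36. Neuron-like cells had 9.83 and 9.12 CPM and endothelial-like cells 7.79, 6.87 and 5.46 CPM. NDUFA4 itself was lowest in mural-like and haematopoietic-like cells, with 330, 384 and 330 CPM in the former. In mesenchymal-like cells NDUFA4L2 was at 118, 12.9 and 34.5 CPM, and 54.1% of all its uninduced UMIs came from cluster 14 (COL15A1-led), which numbered 471, 1 and 30 cells in the 3 libraries. Without induction cluster 14 had 2092 UMIs of NDUFA4L2, against 851 in cluster 11 (192 cells). The other mural-like clusters, 2 and 17, had 221 and 80 UMIs in 254 and 295 cells. The part of cluster 14 in the whole-library values of 76.9, 54.8 and 64.1 CPM was not tested.

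The RefSeq promoter table (GRCh38.p14) held 68 of the 85 nuclear members, and in each the 250 bases before the RefSeq start were searched on both strands. The sequences of NDUFA4L2, a HIF target, and of ATP5MC1, the subunit c gene that was high in neuron-like cells, are shown, with matches to ACGTG or GCGTG (the core bound by HIF, overlaps counted once) in capitals.
NDUFA4L2: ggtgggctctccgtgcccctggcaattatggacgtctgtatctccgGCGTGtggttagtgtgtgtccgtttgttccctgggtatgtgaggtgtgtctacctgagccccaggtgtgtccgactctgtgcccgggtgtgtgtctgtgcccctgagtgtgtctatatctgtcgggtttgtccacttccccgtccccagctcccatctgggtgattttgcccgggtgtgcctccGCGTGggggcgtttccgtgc
ATP5MC1: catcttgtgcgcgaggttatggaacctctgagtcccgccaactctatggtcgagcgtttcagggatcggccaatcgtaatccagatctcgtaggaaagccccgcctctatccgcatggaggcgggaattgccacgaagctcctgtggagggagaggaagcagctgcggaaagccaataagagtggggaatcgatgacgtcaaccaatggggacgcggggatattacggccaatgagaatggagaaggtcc
The first lies at chr12:57240763-57241012 on the minus strand and the second at chr17:48892537-48892786 on the plus strand. The ATP5MC1 window lies before the RefSeq start but shares its last 22 bases with an exon in GENCODE 29, whose start is the one given above. NDUFA4L2 held 2 matches, which begin 204 and 20 bases before the start, and ATP5MC1 held 0. At least 1 match was found in 57.4% of the 68 members and in 43.1% of all 27305 promoters. The core bound by NRF1, a regulator of respiratory genes, was found in 2 members (NDUFB4 and ATP5F1C), or 2.94%, and in 1.13% of promoters. CCGGAAG, the core bound by GA-binding protein, was found in 22.1% of members and 8.82% of promoters; this motif was added after the other values were known. Matches describe the letters of these windows and say nothing on binding.

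The other alternative subunits were low or rare. COX4I2, the hypoxia-linked form of subunit IV, had 13.6, 27.2 and 33.4 CPM in epithelial-like and 4.72, 6.72 and 7.41 CPM in mural-like cells, and 0 UMIs in endothelial-like cells of each library, which allows up to 0.865, 1.03 and 2.05 CPM (3 UMIs). COX4I1 was between 491 and 732 CPM in every class but neuron-like cells, which had 1097 and 1182 CPM. Cluster 20 alone had 16.7 CPM of COX4I2 without induction (12.6 to 21.7) and 86.9 CPM at 45 days (68.2 to 109). COX7A1, the muscle form of subunit VIIa, had 0, 3 and 3 UMIs, and all 6 lay in neuron-like cells, while COX7A2 had 370, 428 and 369 CPM. COX6A2, the muscle form of subunit VIa, had 0, 0 and 8 UMIs. Taking 3 UMIs as the limit that a count of 0 allows, in place of the exact interval, a whole library with 0 allows up to 0.0596 CPM without induction and 0.0668 CPM at 15 days. COX6B2, COX8C and COX7B2, which are known from testis, had at most 2.58, 0.442 and 0.0596 CPM in any library, against 425, 303 and 285 CPM without induction for COX6B1, COX8A and COX7B. UQCRHL, a copy of UQCRH, had 4.61, 4.72 and 5.28 CPM and ATP5MGL, a copy of ATP5MG, 6.66, 4.72 and 5.21 CPM; reads of such copies cannot be told apart with certainty from those of their parents. NDUFA7 missed the floor at 18.9, 19.4 and 13.7 CPM, and the readthrough genes ATP5MF-PTCD1 and NDUFC2-KCTD14 had at most 0.0552 CPM.

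**Figure D5:**
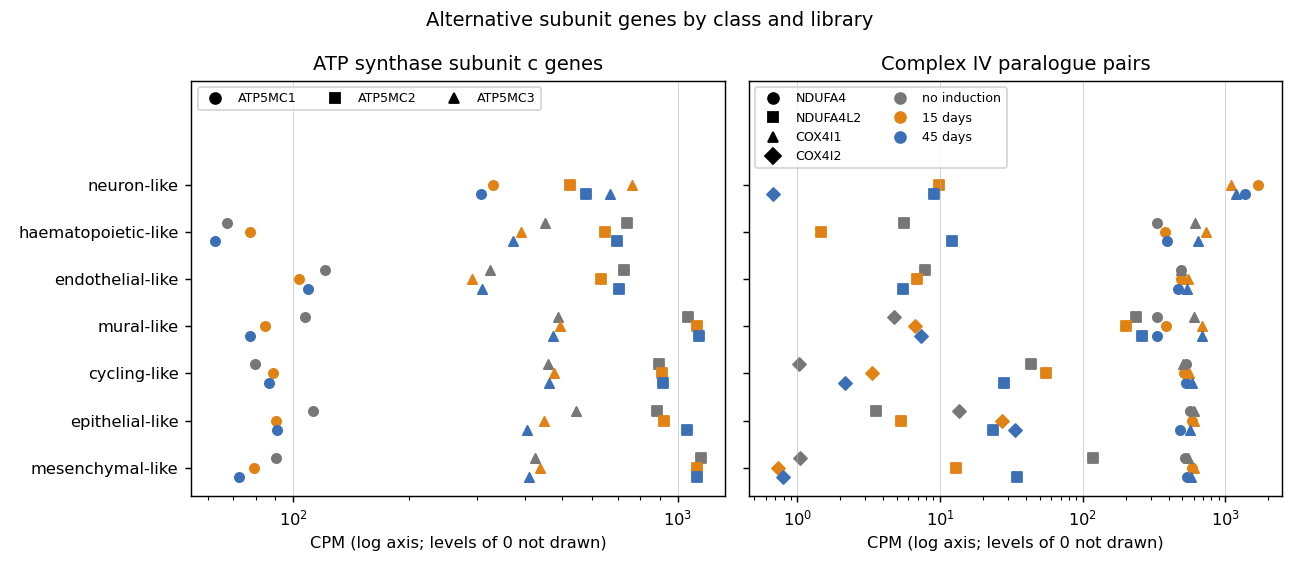
CPM (log axis) of the 3 ATP synthase subunit c genes (left) and of NDUFA4, NDUFA4L2, COX4I1 and COX4I2 (right) by class, with marker shapes for genes and colours for libraries; levels of 0 are not drawn. ATP5MC1 is highest in neuron-like cells (331 and 308 CPM), and NDUFA4L2 in mural-like cells (236, 201 and 260 CPM).

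The pathway counts that follow stand beside 20.8% of all genes at least 1.3-fold higher and 4.57% lower at 15 days, and 14.9% higher and 5.65% lower at 45 days, each against no induction. Glycolysis genes had 14 of 18 at least 1.3-fold higher in each of 15 and 45 days against no induction, with medians of 0.77 and 0.57 on the log2 scale; ENO2, the neuronal enolase, was highest, at 2.69 and 1.89, and the glucose transporters SLC2A1 at 15 days (-0.15) and SLC2A3 at 45 days (-0.35) were lowest. Other HIF targets had 17 and 15 of 20 higher, with medians of 0.62 and 0.65, LOX lowest at -0.76 and -1.0, and ANKRD37 (1.25) and PDK1 (1.16) highest. Of 15 genes of the tricarboxylic acid cycle 4 and 0 were at least 1.3-fold higher (medians 0.30 and 0.16), with SUCLG2 lowest at -0.14 in both, and DLST highest at 45 days, at 0.33. Of 9 genes of complex II and other carriers 1 and 0 were higher, with medians of 0.33 and 0.11; ETFA (0.48) and ETFDH (0.36), which feed electrons to ubiquinone, were highest.

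For genes that build the chain and for stress RNAs the same all-gene shares apply (20.8% and 14.9% higher, 4.57% and 5.65% lower), with all-gene medians of 0.18 and 0.12. Assembly factors had 2 of 29 higher in each comparison with medians of 0.12 and 0.01, and LYRM7, which acts in the assembly of complex III, was highest, at 0.44 and 0.56. Genes for mitochondrial RNA and DNA upkeep had 2 and 0 of 11 higher (medians 0.12 and 0.18). TFAM, which packages mitochondrial DNA and takes part in its transcription, was highest at 45 days, at 0.33, and SLIRP, which binds mitochondrial messages, lowest, at -0.24. Of 11 biogenesis regulators 4 could be measured, with 0 past 1.3-fold and medians of 0.10 and 0.10, and CREB1 was highest, at 0.18 and 0.23. Mitochondrial ribosomal proteins had medians of 0.10 and 0.02 over 72 genes, with MRPL33 lowest at -0.34 and -0.54, and cytosolic ones -0.25 and -0.04 over 79, with RPS20 highest at 0.27 and 0.53. Among nuclear-retained and stress RNAs 5 and 6 of 11 were at least 1.3-fold lower, with medians of -0.09 and -0.47. HSPA1A was lowest at 45 days, at -1.0, and DDIT3 highest, at 0.81 and 0.64, while MALAT1 in whole libraries was at 25010, 26749 and 28918 CPM.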

How the data were processed

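Values were the authors' deposited counts of UMIs per gene and barcode, whole numbers without normalization. Per the submitters' processing notes they came from Cell Ranger 3.0.0 on GRCh38, and the file headers name software 3.0.1; for the annotation behind the counts, the version is not given in the sources used here. Gene coordinates are from GENCODE 29 (33456 of 33538 identifiers found, including all 98 members). Files held 10232, 5962 and 10765 barcodes (no induction, 15 days, 45 days). Barcodes with at least 1000 UMIs, 500 genes and at most 20% MT- UMIs were kept. Doublets were removed within each library from simulated doublets, at 0.8% per 1000 barcodes, which took out 8.18%, 4.77% and 8.62%; some remain. Cells were clustered together without integration (totals of 10000, log, 2000 variable genes, 30 components, 15 neighbours, Leiden resolution 1.0; scanpy 1.11.5, leidenalg 0.10.2), leaving members, MT- genes and pathway lists out of the variable genes; this gave 23 clusters. A cluster was named from 13 marker sets when at least 3 markers, and at least 1 in 3 of the set, were 2-fold higher and in 10% of cells. Clusters that failed were compared with only the named clusters other than mesenchymal, mural, cycling and chondrogenic ones. They were called mesenchymal-like when at least 3 mesenchymal markers were 2-fold higher there and in 10% of cells, which is a looser contrast. This scoring was set after seeing the data, and clusters with more markers of another class than their own among the top 10 genes stayed unnamed.

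UMIs were summed per library and class. Named were all mitochondrially encoded members, the 5 highest and 5 lowest nuclear members per comparison, alternative subunits and each list's extremes. The members and lists were chosen with earlier results of these data known. The calls were checked on simulated counts, which held counting error alone and changes larger than 1.3-fold or none. That check cannot speak to changes near 1.3-fold or to differences between organoid pools. Alternatives were other filters, scalings, floors and cluster settings. Protein sequences were not used here. Some genes the rule names are not reported here.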

Additional observations from a re-analysis of the deposited data

Results flagged for a closer look

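The mitochondrially encoded share of haematopoietic-like cells was 1.12-fold of the uninduced level at 15 days, with 0 of 13 members below 0, whereas the other 5 named classes compared were lower. The class had 65 and 89 cells in these libraries. With no cap on mitochondrial UMIs the direction reversed, to 0.929-fold, and mural-like cells were at 1.03-fold. Whether the difference between classes exceeds that between separate organoid pools was not tested, because each group had 1 library.

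The mitochondrially encoded share of neuron-like cells was 1.13-fold at 45 days of that at 15 days, while the other 6 named classes were lower (0.747-fold to 0.978-fold). Among the mitochondrially encoded members over the floor MT-ATP6 was highest, at 0.77 on the log2 scale, and MT-CYB lowest, at -0.39. The mean over cells gave 0.931-fold for the same class. This difference was not tested either.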

How the results depend on the processing

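The order of the mitochondrially encoded share (no induction, 15 days, 45 days, from high to low) was kept under each alternative run, while its level followed the filters. With no cap on mitochondrial UMIs the shares were 5.82%, 5.01% and 4.0% and the mitochondrial to nuclear ratios 2.91, 2.36 and 2.04; with a cap of 10% they were 4.55%, 3.91% and 3.42%, and 2.24, 1.82 and 1.74. With doublets kept they were 5.22%, 4.48% and 3.81%, and 2.59, 2.10 and 1.95, and over all barcodes 5.96%, 5.13% and 4.13%, and 3.00, 2.44 and 2.13. Means over cells gave 4.81%, 4.37% and 3.57%, and 2.35, 2.14 and 1.86. Cells of at least 2000 UMIs gave 3.75% and 1.90 at 45 days. Alternatives chosen after seeing the data gave 5.21%, 4.63% and 3.94%, and 2.57, 2.15 and 2.0, without cluster 6, and 4.34% and 2.16 at 15 days and 3.63% and 1.90 at 45 days without neuron-like cells. Counts of members past 1.3-fold moved as follows. Scaling by the median of gene ratios gave 0 higher and 22 lower for 45 days against no induction (1 and 8), 0 and 16 for 15 days against no induction (7 and 2) and 0 lower for 45 against 15 days (3), where no cap gave 5. For 15 days against no induction, 2 were higher and 1 lower without neuron-like cells, and 4 and 1 with means over cells. Cells under 2% in place of 1% made up 24.4%, 27.8% and 37.1%. For 15 days against no induction the log2 ratio of NDUFA5 reversed to -0.020 without neuron-like cells and that of NDUFA4L2 to 0.061 with means over cells. Of 1326 values of 34 named members these 2 reversed, 375 moved past the counting interval and 949 did not. Only members past 1.3-fold in the main run could count as reversed. Changes of sign in smaller ratios were not counted apart and lie among the other values. The causes were not tested. No paired analysis was possible because each group had 1 library, and leaving out a replicate was not possible for the same reason. Depth limits members under 20 CPM and classes under 50 cells, which were not compared.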
